A study of Mus musculus with 4 samples.

Results

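The 7 genes described here were Pramel4, Pramel5, Pramel6 and Pramel7 of the PRAME-like family and Trim43a, Trim43b and Trim43c of the TRIM family, out of 24411 genes listed for each library. They were taken by symbol from these families, and the families were selected on a measured value, the lower level of several of their members in inhibitor-treated than in control embryos of these same libraries. That difference is therefore given as a description, and no test of it supports a statement. RNA-seq had been performed on mouse embryos (ICR strain) at the late two-cell stage, produced by in vitro fertilization, cultured in KSOM and collected at 36 h post-insemination (hpi). Control embryos were cultured with the vehicle DMSO and treated embryos with 6 µM 10074-G5, a small molecule that prevents the pairing of the transcription factor MYC with its partner MAX. Treatment began at the one-cell stage, at 3 hpi according to the sample descriptions and at 6 hpi according to the description of the series. Each group had 2 libraries of 10 pooled embryos, which the authors call biological replicates. The spread between 2 such libraries may still be partly technical, since the labels do not tie them to separate cultures. In pooled embryos, fewer expressing embryos and less RNA per embryo cannot be told apart.

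PRAME-like proteins are leucine-rich repeat proteins that multiplied in rodents into clusters of related genes, many of which are transcribed in germ cells and early embryos. Some act as substrate receptors of CUL2 ubiquitin ligases, and PRAMEL7 directs the removal of UHRF1, the protein that brings the maintenance methyltransferase DNMT1 to newly copied DNA. TRIM43 proteins belong to the tripartite motif family of RING-type ubiquitin ligases, and the genes are transcribed in the preimplantation embryo around zygotic genome activation.

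The genes lay in 3 places of the genome (RefSeq, GRCm38.p6). Pramel7 (chr2:87489088-87492418, minus strand) and Pramel6 (chr2:87506565-87510865, plus strand) were neighbours on chromosome 2. Pramel4 (chr4:144059125-144069327, plus strand) and Pramel5 (chr4:144270633-144280466, minus strand) were part of a large PRAME-like cluster on chromosome 4. Trim43a (chr9:88580891-88588824, plus strand), Trim43c (chr9:88839164-88848190, plus strand) and Trim43b (chr9:89084624-89092835, minus strand) were on chromosome 9. All 7 genes are annotated as protein coding, with 3 exons in the longest GENCODE transcript of Pramel7, 4 in each of the other Pramel transcripts and 7 in each Trim43 transcript.

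The 250 bases before the start site were available from RefSeq for 5 of the 7 genes and are shown for the 4 Pramel genes, because the window of Pramel7 closely resembles those of 2 further genes of the family that are taken up below. The windows were chr2:87492419-87492668 for Pramel7, chr2:87506315-87506564 for Pramel6, chr4:144058875-144059124 for Pramel4 and chr4:144280467-144280716 for Pramel5, each written in the direction of its gene. Those of the 2 further genes, Pramef17 (RefSeq Pramel14) and Gm13128 (RefSeq Pramel30), were chr4:143994370-143994619 on the minus strand and chr4:144329999-144330248 on the plus strand. Capitals mark matches to CANNTG, the E-box pattern whose CACGTG form MYC and MAX prefer, and to TAATCC or its reverse complement, the core bound by bicoid-type homeodomain proteins.
Pramel7: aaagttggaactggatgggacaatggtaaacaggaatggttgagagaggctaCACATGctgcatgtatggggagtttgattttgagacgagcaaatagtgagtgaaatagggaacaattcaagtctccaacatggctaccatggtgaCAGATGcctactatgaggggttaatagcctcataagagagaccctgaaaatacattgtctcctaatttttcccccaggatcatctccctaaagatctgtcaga
Pramef17: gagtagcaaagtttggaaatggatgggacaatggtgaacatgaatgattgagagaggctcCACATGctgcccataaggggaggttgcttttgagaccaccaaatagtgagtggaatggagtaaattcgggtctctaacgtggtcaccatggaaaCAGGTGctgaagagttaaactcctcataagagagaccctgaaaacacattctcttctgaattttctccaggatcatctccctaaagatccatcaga
Gm13128: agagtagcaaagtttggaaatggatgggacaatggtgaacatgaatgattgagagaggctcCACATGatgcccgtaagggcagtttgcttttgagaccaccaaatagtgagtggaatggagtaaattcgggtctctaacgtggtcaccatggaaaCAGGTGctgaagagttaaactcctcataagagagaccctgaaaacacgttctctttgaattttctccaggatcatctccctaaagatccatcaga
Pramel6: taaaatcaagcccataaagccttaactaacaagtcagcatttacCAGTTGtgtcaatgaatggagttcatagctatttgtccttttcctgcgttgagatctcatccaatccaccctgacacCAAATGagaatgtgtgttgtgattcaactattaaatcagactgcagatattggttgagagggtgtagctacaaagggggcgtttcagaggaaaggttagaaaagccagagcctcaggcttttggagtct
Pramel4: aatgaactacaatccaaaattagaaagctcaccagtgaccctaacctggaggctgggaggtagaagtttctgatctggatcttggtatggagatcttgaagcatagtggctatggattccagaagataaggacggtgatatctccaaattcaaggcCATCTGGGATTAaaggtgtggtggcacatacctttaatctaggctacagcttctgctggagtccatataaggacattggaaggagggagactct
Pramel5: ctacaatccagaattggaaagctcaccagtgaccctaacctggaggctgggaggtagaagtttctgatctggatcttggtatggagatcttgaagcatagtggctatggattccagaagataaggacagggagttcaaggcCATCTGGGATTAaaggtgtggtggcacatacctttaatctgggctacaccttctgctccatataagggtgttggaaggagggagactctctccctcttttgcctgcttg

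Pramel4 and Pramel5 were near copies of each other here, with 95.7% of aligned upstream bases and 94.6% of aligned transcript bases identical. Pramel6 and Pramel7 were neighbours but not close copies, with 61.2% and 64.5%. The 3 Trim43 transcripts were 97.2% to 98.2% identical in pairs. No CACGTG was found on either strand in any of the 5 windows, which included that of Trim43a, against 6.05% of all 27025 RefSeq windows of this length. The looser CANNTG, which contains CACGTG, was present in 4 of the 5 and in 66% of all windows. TAATCC was present in Pramel4 and Pramel5, which share it as copies, and in 6.38% of all windows. Neither TATAAA (13% of all windows) nor GGGCGG (32.9%) was found in the 5 windows. A match describes these letters only, and binding was not measured.

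The total expected count per library, RSEM's estimate of fragments assigned to genes, ranged from 18206584 to 20718690, and the smallest count of any of the 7 genes was 932. Levels are given as FPKM, fragments scaled to transcript length and library depth, which may be compared between genes. The stage was checked with a list of 32 other two-cell genes, such as Zscan4 and Zfp352 family members, of which 30 were listed and 29 passed the filter on low counts. One control library, DMSO replicate 1, stood apart from the other 3 in these markers, with a summed level of 8219 TPM (the same kind of unit, scaled to a fixed total) against 18518 to 23847. Values without it are therefore also given for the 7 genes, for each list's median and for some of the named genes.

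The Trim43 genes had the highest levels of the 7. In control embryos they ranked 178 (Trim43b), 202 (Trim43a) and 307 (Trim43c) among all listed genes by mean FPKM, and the Pramel genes ranked 731 (Pramel7), 764 (Pramel4), 1116 (Pramel6) and 2091 (Pramel5). All 7 genes together made up 0.357% and 0.275% of all TPM in the 2 control libraries and 0.141% and 0.184% in the 2 treated libraries. The Trim43 genes contributed 76.2% to 80.7% of that sum in every library, so the balance between the families varied little while their total varied.

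Trim43b, a RING-type ubiquitin ligase gene like its relatives, was listed at 857.71 and 662.41 FPKM in DMSO replicates 1 and 2 and at 357.14 and 459.32 FPKM in 10074-G5 replicates 1 and 2. Trim43a was at 889.43 and 492.92 FPKM in the control libraries and at 271.54 and 357.72 FPKM in the treated libraries. Trim43c was at 500.43 and 469.71 FPKM against 192.24 and 251.7 FPKM. In each of these genes both treated libraries were lower than both control libraries. The control means were 760 ± 138 for Trim43b, 691 ± 280 for Trim43a and 485 ± 21.7 FPKM for Trim43c (SD, n = 2), so that Trim43a did not differ from either relative beyond the spread of the control libraries. In treated embryos the means were 408 ± 72.3, 315 ± 60.9 and 222 ± 42.0 FPKM (SD, n = 2), and both Trim43c values were below both Trim43a values.

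Among the Pramel genes, Pramel7 was at 247.24 and 155.8 FPKM in the control libraries and at 58.4 and 105.53 FPKM in the treated libraries. Its neighbour Pramel6, which with Pramel7 supports self-renewal when raised in embryonic stem cells, was at 140.51 and 97.88 against 35.53 and 48.17 FPKM. Both genes were lower in both treated libraries than in either control library. The gap between the groups was widest in Pramel6, whose lowest control value was 2.07 times its highest treated value in CPM (counts scaled to library depth). The ratio of Pramel7 to Pramel6 in FPKM was 1.76, 1.59, 1.64 and 2.19 in DMSO replicates 1 and 2 and 10074-G5 replicates 1 and 2.

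Pramel4 was at 259.96 and 125.92 FPKM in control embryos and at 76.7 and 109.89 FPKM in treated embryos, and the lowest control value was only 1.17 times the highest treated value in CPM. Pramel5, its near copy, was at 54.22 and 46.69 against 25.28 and 33.93 FPKM. Pramel5 was thus the lowest of the 7 genes in every library, and Pramel4 exceeded it 4.79-fold in DMSO replicate 1 and 2.7-fold to 3.24-fold in the other 3 libraries. In control embryos both values of Pramel7 (202 ± 64.7 FPKM) were above both of Pramel6 (119 ± 30.1), and Pramel4 (193 ± 94.8; SD, n = 2) overlapped each of them. In treated embryos the means were 93.3 ± 23.5 FPKM for Pramel4, 82.0 ± 33.3 for Pramel7, 41.9 ± 8.94 for Pramel6 and 29.6 ± 6.12 for Pramel5 (SD, n = 2). Pramel4 and Pramel7 overlapped there, and Pramel6 was below both.

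**Figure D1:**
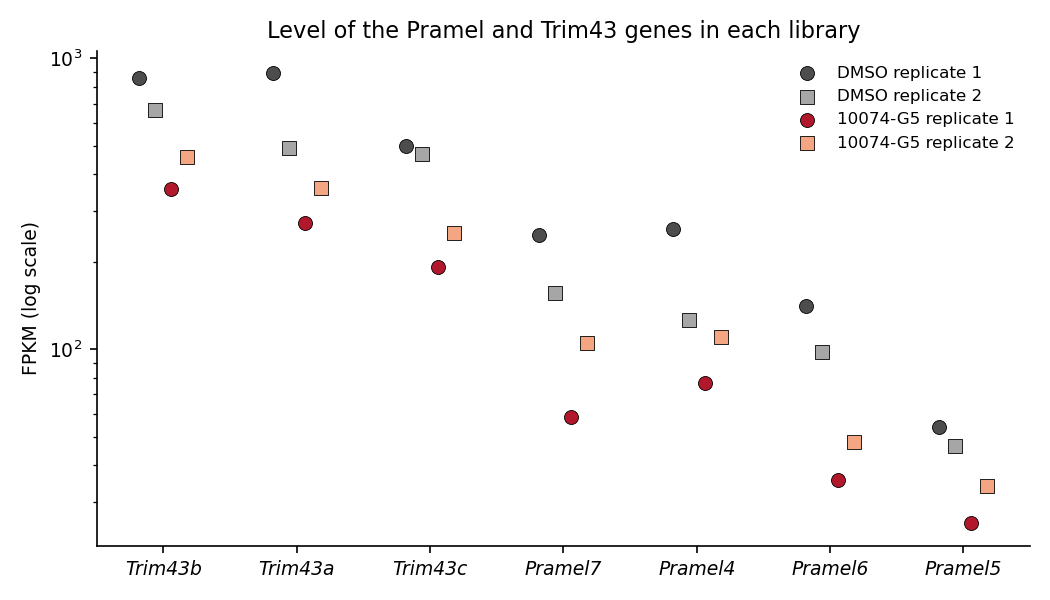
Level of each of the 7 genes in the 4 libraries, in FPKM on a log axis. Circles are replicate 1 and squares replicate 2, grey for DMSO and red for 10074-G5. In each gene the 2 treated libraries lie below the 2 control libraries, DMSO replicate 1 is the highest library and 10074-G5 replicate 1 the lowest.

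The libraries had the same order in all 7 genes. DMSO replicate 1 exceeded DMSO replicate 2 by 1.27-fold (Trim43c) to 2.46-fold (Pramel4) in CPM, and 10074-G5 replicate 2 exceeded 10074-G5 replicate 1 by 1.26-fold (Trim43b) to 1.77-fold (Pramel7). The spread within a group was thus shared by the genes and was largest in Pramel4 and Trim43a among the control libraries.

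Relative to control embryos, the log2 fold change (log2FC) from the edgeR fit across all 13549 genes tested was −1.68 ± 0.42 for Pramel6, −1.47 ± 0.47 for Pramel7, −1.32 ± 0.47 for Trim43a, −1.28 ± 0.38 for Trim43c, −1.24 ± 0.50 for Pramel4, −1.06 ± 0.41 for Trim43b and −0.93 ± 0.39 for Pramel5 (each ± SE, 2 against 2 libraries). All 7 passed the filter on low counts, and their median was −1.28, beside 0.04 over all genes tested. The groups did not overlap in 7 of the 7, as was the case in the same direction for 28.3% of all genes tested, and log2FC was below −1 in 6 of the 7, beside 17.8% of all genes tested. At |log2FC| over 1 and adjusted p under 0.05, edgeR called none of the 7 lower (adjusted p = 0.333 to 0.334) and 0% of all genes, although 2013 genes, the 7 among them, had an unadjusted p under 0.05. DESeq2 with the deposited effective lengths called Pramel6 (adjusted p = 0.0155), Trim43c (0.038) and Pramel7 (0.0437) at the same thresholds, beside 2.36% of genes called lower. In that fit the adjusted p was 0.062 for Trim43a, 0.0935 for Trim43b, 0.095 for Pramel4 and 0.161 for Pramel5. Nothing is read from these shares, because this contrast selected the genes.

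The size of the difference depended on DMSO replicate 1. Without it, log2FC was −0.43 for Pramel4, −0.65 for Trim43a, −0.66 for Pramel5, −0.70 for Trim43b and −0.93 for Pramel7, and edgeR called none of the 7. It stayed larger for Pramel6 (−1.22) and Trim43c (−1.08), the genes with the widest gaps between the groups. Without DMSO replicate 2 it lay between −1.14 (Pramel5) and −2.01 (Pramel6), and edgeR called all 7, along with 14.9% of all genes tested. The lone control library is assumed in these fits to vary like the treated ones.

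**Figure D2:**
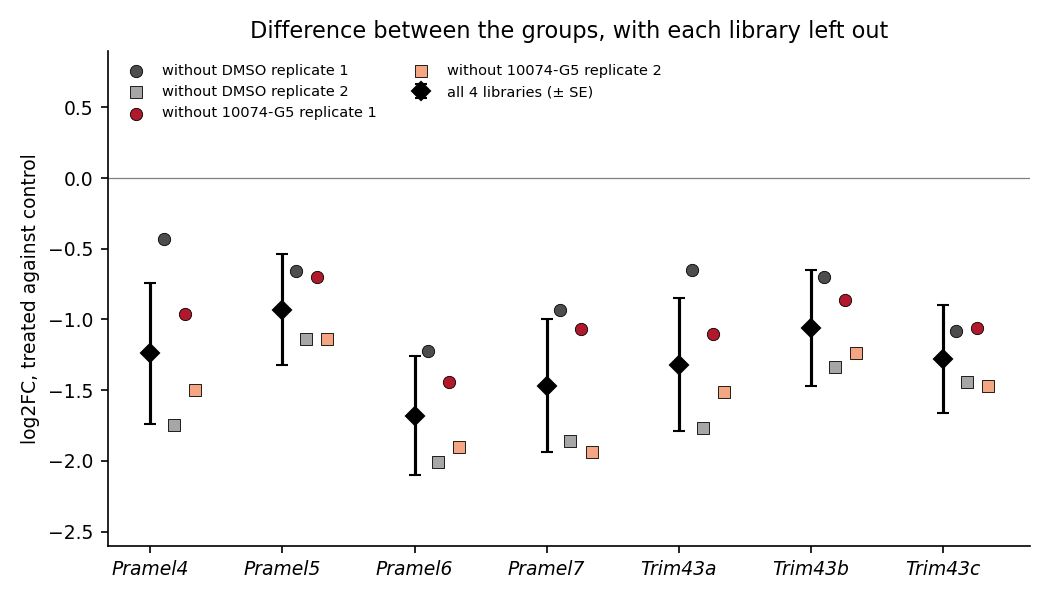
Log2FC of the 7 genes, treated against control, from the edgeR fit. Black diamonds with bars are all 4 libraries ± SE, and the other symbols leave out 1 library each. Every value is below 0, and the values without DMSO replicate 1 range from −0.43 in Pramel4 to −1.22 in Pramel6.

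Sequence shared between genes limits how their counts can be read. The authors state that only uniquely mapped reads were used. The counts of Pramel4, Pramel5 and the Trim43 genes were, however, not whole numbers in any library, so some reads were divided between genes. How many reads were dropped for not mapping uniquely is not known. Of all 150-base windows in the Pramel4 transcript, 82.1% also occurred in Gm13102, a gene between Pramel4 and Pramel5. Gm13102 was listed with 87.97 and 27.86 counts in the control libraries and 17.67 and 61.79 in the treated libraries, against 3377.06 to 10550.96 counts for Pramel4. The level of Pramel4 is uncertain to that extent. The share was 3.17% for Trim43a, 5.96% for Trim43b and 21.1% for Trim43c, and 0 for Pramel5, Pramel6 and Pramel7.

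The windows of Trim43c were shared with Trim43b or with 9330159M07Rik, a transcript annotated on the opposite strand across Trim43c. The strand used in counting is not stated, so reads of this pair cannot be told apart, although 9330159M07Rik had only 326.08 to 602.52 counts where Trim43c had 6834.8 to 16390.35. A sum of the 3 Trim43 genes does not depend on how reads were divided among them. It does not restore any reads dropped for not mapping uniquely, nor set apart those of 9330159M07Rik. The sum was 4519 and 2779 CPM in the control libraries and 1407 and 1793 CPM in the treated libraries, and the groups again did not overlap. Pramel6 and Pramel7 had whole-number counts in all 4 libraries, meaning that no read was divided with another gene.

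Most of the rest of the PRAME-like family had values of the opposite sign. Of 28 other PRAME-like genes 27 were tested, and 23 had a log2FC above 0 and 4 below, with a median of 0.68. Without DMSO replicate 1 the median was 0.18, with 9 below 0, and without DMSO replicate 2 it was 1.49. In 14 of the 27 both treated libraries were above both control libraries, and in 4 they were below, beside 28.9% and 28.3% of all genes tested. The most abundant were C87977, at 139.06 and 557.67 FPKM in the control libraries and 911.39 and 728.6 FPKM in the treated libraries, Gm10436 (log2FC 1.25 ± 0.68) and Gm13023 (1.24 ± 0.48). The largest differences among genes with a mean of at least 1 FPKM were those of Gm13125 (1.31 ± 0.58), Gm3259 (1.31 ± 0.87) and Gm13088 (1.3 ± 1.46), of which Gm13088 overlapped between groups. As in the two-cell list, DMSO replicate 1 stood apart, with a median centred log2 CPM of −1.01 against 0.31 to 0.34 in the other 3 libraries. Without DMSO replicate 1 the log2FC of C87977 was 0.56, that of Gm10436 0.53, that of Gm13023 0.79, that of Gm3259 0.46 and that of Gm13088 0.55.

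The 4 other PRAME-like genes that were lower without overlap, named after their values were seen, were Gm13128 (−1.21 ± 0.37), Pramef17 (−1.08 ± 0.39), Gm3139 (−0.99 ± 0.40) and D5Ertd577e (−0.79 ± 0.35). Neither edgeR nor DESeq2 called any of the 27, beside 0% and 2.36% of all genes in those fits called lower. Of the 27, 6 had an unadjusted edgeR p under 0.05, beside 2013 of all 13549 tested. Gm13128 and Pramef17 were the nearest genes on the outer sides of the Pramel4 and Pramel5 pair, at 49.8 kb and 64.8 kb. Gm13128 was at 75.35 and 69.25 FPKM in the control libraries and at 32.08 and 37.15 FPKM in the treated libraries. Pramef17 was at 34.7 and 35.07 against 18.08 and 18.4 FPKM. Their control libraries differed little, and without DMSO replicate 1 the log2FC was −1.0 and −0.94.

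Both of these genes resembled Pramel7 of chromosome 2 rather than the Pramel4 and Pramel5 they flank. Their transcripts were 81.5% (Gm13128) and 81.3% (Pramef17) identical to that of Pramel7, and 65.4% each to that of Pramel4. Their upstream windows, printed above beside that of Pramel7, were 83% and 83.9% identical to it and 98% identical to each other. All 3 held 2 matches to CANNTG, of which the outer, CACATG, was the same, but 2 or more matches were also present in 10 of 20 other tested PRAME-like genes with a RefSeq window. In these 20 genes identity to the window of Pramel7 ranged from 51.8% to 72.3%, and log2FC was below 0 in 1 of them, D5Ertd577e (51.8%). When DMSO replicate 1 was left out log2FC was below 0 in 6 of the 20, down to −0.77 in D5Ertd577e. Among the 6, Gm7978 (71.7% identical) changed from 0.43 to −0.53. Gaps are left out of this identity, so a high percentage can rest on fewer bases. Gm7978 had 137 bases identical to the window of Pramel7, against 200 in Gm13128 and 203 in Pramef17. Gm3139 was among the genes with no window, and its transcript was 61.7% identical to that of Pramel7. The transcripts most like that of Pramel6, among those found for other tested PRAME-like genes, were those of C87499 and C87977 (71.1% each) and Gm10436 (70.9%). Each was higher without overlap, with log2FC of 1.28 ± 0.54, 1.17 ± 0.58 and 1.25 ± 0.68. Without DMSO replicate 1 these values were 0.77, 0.56 and 0.53. Whether sequence likeness goes with direction was not tested.

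**Figure D3:**
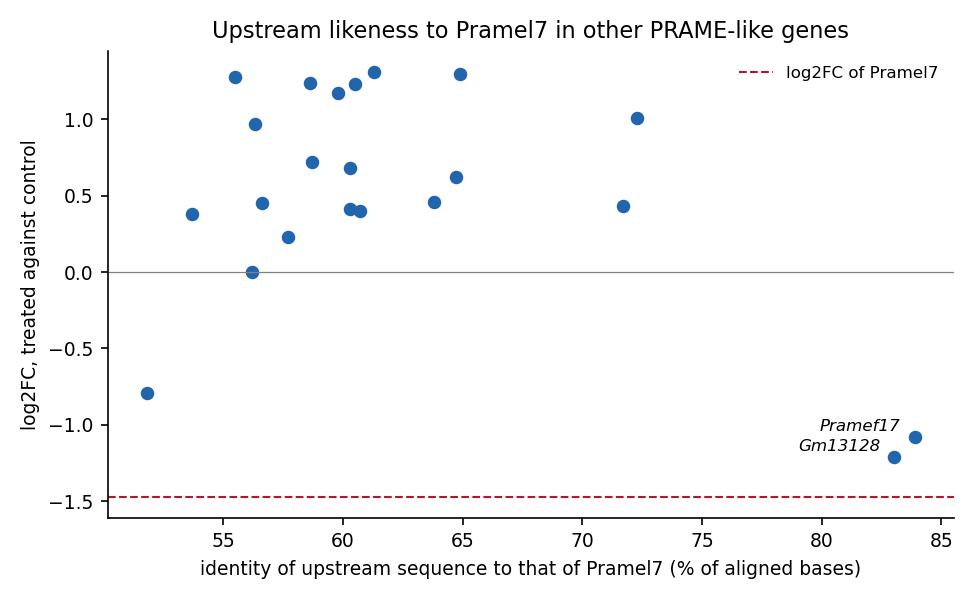
Identity of the 250 bases before the start site to those of Pramel7 against log2FC, treated against control, for 22 other PRAME-like genes. Identity is the percent of aligned bases, with gaps left out. The dashed line is the log2FC of Pramel7 (−1.47). Gm13128 and Pramef17 are the 2 points above 80% on the horizontal axis, at −1.21 and −1.08, and 1 of the other 20 is below 0 (6 without DMSO replicate 1, not plotted).

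Genes like Pramel4 in sequence had values of both signs. Gm13102, in which most of its 150-base windows also occur, had a log2FC of −0.83, with overlap between groups, and of 0.38 without DMSO replicate 1. The closest transcripts to Pramel4 by alignment among the other tested PRAME-like genes were those of Pramef6 (87.9% identical), Gm13083 (87.7%) and Gm13078 (86.5%), and in each of them both treated libraries were above both control libraries. Their log2FC was 0.72 ± 0.38, 0.38 ± 0.39 and 0.46 ± 0.39. Their upstream windows were 63.3%, 58.1% and 59.8% identical to that of Pramel4. B020004J07Rik had the upstream window most like that of Pramel4, 89.2% identical and with a TAATCC match, and a log2FC of 0.40 ± 0.37 with no overlap between groups. None of these 4 differences passed the edgeR threshold, which no gene tested passed.

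Genes of both signs were found along the chromosome 4 cluster. It spanned 1014 kb with 18 listed PRAME-like genes, of which 17 were tested. Among the 15 that were not Pramel4 or Pramel5, 2 were lower and 8 higher without overlap, beside 28.3% and 28.9% of all genes tested. Between Pramel4 and Pramel5 lay C87977 (1.17 ± 0.58) and the oogenesin genes Oog3 and Oog2, of the same leucine-rich repeat kind, with log2FC of 1.35 and 1.52 (0.77 and 0.95 without DMSO replicate 1). Oog3 was at 1399.0 and 5079.13 FPKM in the control libraries and at 9968.1 and 7332.54 FPKM in the treated libraries.

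**Figure D4:**
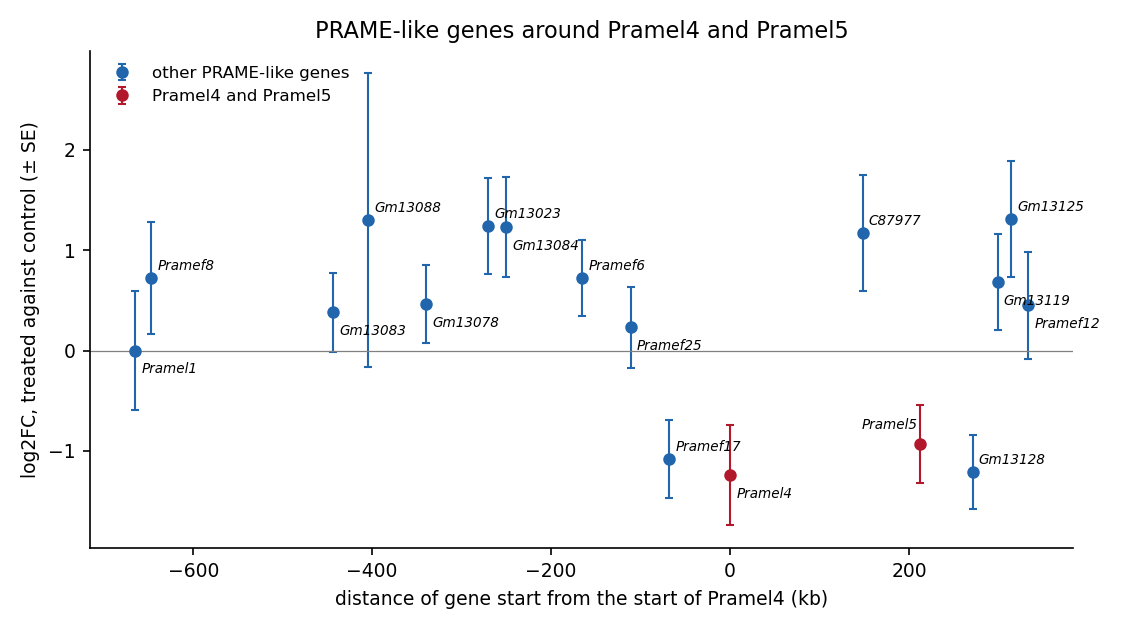
Log2FC ± SE, treated against control, of the 17 tested PRAME-like genes on chromosome 4 against the distance of their start from that of Pramel4 in kb. Red points are Pramel4 and Pramel5 and blue points the others. Pramef17, Pramel4, Pramel5 and Gm13128 lie at −0.93 or below, with C87977 at 1.17 between them.

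The other neighbours were mostly at low levels. Next to Pramel7, the olfactory receptor gene Olfr1126 had 0 counts in the 4 libraries, and next to Pramel6, Olfr153 had 45.7 and 38.0 counts in the control libraries and 0 and 17.0 in the treated libraries, a log2FC of −2.54. Zfp949, 9.8 kb from Trim43a, was at 38.38 and 22.63 against 15.17 and 19.22 FPKM, a log2FC of −1.0 with all libraries and −0.39 without DMSO replicate 1. Bcl2a1b, on the far side of Trim43b, had 0 counts. Between the Trim43 genes, Mthfsl was at 17.81 and 53.89 FPKM in the control libraries and at 81.7 and 73.27 FPKM in the treated libraries. Its log2FC was 1.04 with all libraries and 0.53 without DMSO replicate 1. There 9330159M07Rik and 9430037G07Rik had log2FC of −0.69 and −0.61, which became −0.05 and 0.59 without DMSO replicate 1.

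Of 63 other Trim genes, 36 were tested, with a median log2FC of 0.52, 25 above 0 and 11 below. Leaving out DMSO replicate 1 gave a median of 0.16, and leaving out DMSO replicate 2 gave 0.84. Without overlap 15 were higher and 4 lower, beside 28.9% and 28.3% of all genes tested. The 4 were Trim6, Trim25, Trim28 and Trim33. DESeq2 called 1 of the 36 lower, beside 2.36% of genes in that fit. It was Trim33 (edgeR log2FC −1.34 ± 0.40), which encodes a nuclear regulator of transcription. Trim61, the most abundant, was at 202.61 and 830.8 FPKM in the control libraries and at 1304.28 and 922.53 FPKM in the treated libraries. It exceeded every Trim43 gene in DMSO replicate 2 and in both treated libraries, and was below each of them in DMSO replicate 1. Trim13 (log2FC −0.03 ± 0.37) and Trim59 (−0.35 ± 0.42) were next and overlapped between groups. The largest differences among genes with a mean of at least 1 FPKM were those of Trim31 (2.7 ± 1.04), Trim6 (−1.91 ± 0.60) and Trim15 (1.44 ± 0.77). With DMSO replicate 1 left out the log2FC was 0.42 for Trim61, 0.67 for Trim15, −1.17 for Trim6 and 3.71 for Trim31. For Trim33 it was −0.91, and Trim28 and Trim25 moved from −1.18 and −0.56 to −0.37 and −0.13. None was called by edgeR, beside 0% of all genes tested. An unadjusted edgeR p under 0.05 was found in 4 of the 36, beside 2013 of all 13549 tested.

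A list of 10 genes around PRAMEL7 and TRIM43 activity was next examined. Of the 10, 6 were lower and 2 higher without overlap, beside 28.3% and 28.9% of all genes tested. The CUL2 ligase parts were lower without overlap in treated embryos: the scaffold Cul2 (−1.0 ± 0.36), the elongins Tceb1 (−1.23 ± 0.45) and Tceb2 (−0.83 ± 0.38) and the RING subunit Rbx1 (−0.37 ± 0.36). Cul2 was at 42.0 and 38.14 FPKM against 20.55 and 24.09 FPKM. The log2FC without DMSO replicate 1 was −0.77 for Cul2, −0.67 for Tceb1, −0.50 for Tceb2 and −0.22 for Rbx1. Uhrf1, whose protein PRAMEL7 helps to remove, was at 5.72 and 19.29 FPKM in the control libraries and at 23.14 and 20.78 FPKM in the treated libraries. Its log2FC was 0.73 ± 0.53 with all libraries and 0.18 without DMSO replicate 1. The demethylating enzyme gene Tet3 was also higher without overlap (0.67 ± 0.37), whereas Dnmt1 (0.38 ± 0.45) and Uhrf2, the paralogue of Uhrf1 (0.12 ± 0.43), overlapped. Dnmt3l (−0.13 ± 0.37) and Pcnt (−0.86 ± 0.43), the gene of the centrosome protein pericentrin, a target of human TRIM43, were lower without overlap. The log2FC without DMSO replicate 1 was −0.39 for Pcnt and 0.42 for Tet3. None of the 10 was called by edgeR or DESeq2, beside 0% and 2.36% of all genes in those fits called lower. An unadjusted edgeR p under 0.05 was found in 2 of the 10, beside 2013 of all 13549 tested. The median log2FC of the 10 was −0.25 (−0.17 without DMSO replicate 1), and protein was not measured.

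The other two-cell genes did not share the pattern of the 7. Of the 29 tested, 23 had a log2FC above 0 and 6 below, with a median of 0.87. Without DMSO replicate 1 the median was 0.33, with 9 below 0, and without DMSO replicate 2 it was 1.53. Without overlap 17 were higher and 1, Tdpoz2 (−0.95 ± 0.51), was lower, beside 28.9% and 28.3% of all genes tested. Neither tool called any of the 29, beside 0% (edgeR) and 2.36% (DESeq2) of all genes called lower. Of the 29, 2 had an unadjusted edgeR p under 0.05, beside 2013 of all 13549 tested. The most abundant were Gm4850, at 2273.53 and 3428.6 FPKM against 2236.48 and 3239.58 FPKM, and Gm2016 (0.87 ± 0.42). The median centred log2 CPM of the list was −1.0 in DMSO replicate 1 and 0.20 in DMSO replicate 2, and 0.53 and 0.49 in the treated libraries, whereas that of the 7 Pramel and Trim43 genes was 1.16, 0.23, −0.80 and −0.35. DMSO replicate 1 was thus the lowest library for the list and the highest for the 7 genes.

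Oocyte transcripts had mostly the sign of the two-cell list. Of 12 tested, 10 had a log2FC above 0 (median 0.66), 8 of them without overlap, and Zp3 was lower without overlap (−1.37 ± 0.56). Over all genes tested, 28.9% were higher and 28.3% lower without overlap. Without DMSO replicate 1 the median was 0.33, with 4 below 0, and the log2FC of Zp3 was −0.27. Without DMSO replicate 2 the median was 1.73. The most abundant, Bmp15, a growth factor gene of the oocyte, was at 69.94 and 334.06 FPKM in the control libraries and at 503.59 and 461.39 FPKM in the treated libraries, followed by Npm2 (1.10 ± 0.44). When DMSO replicate 1 was left out the log2FC was 0.53 for Bmp15 and 0.71 for Npm2. The summed level of the list was 539 and 1274 TPM in the control libraries and 1708 and 1568 TPM in the treated libraries. Across all genes, 84.5% of those lower in treated embryos without overlap had a higher value in DMSO replicate 1 than in DMSO replicate 2, as all 7 Pramel and Trim43 genes did. The part of this library difference in the results was not tested beyond the values without DMSO replicate 1. Of 12 markers of cumulus cells, which surround the oocyte, 4 were at 0 in all libraries, Foxl2, Amh, Ptx3 and Inhba, and 3 were tested. The most abundant, Tnfaip6 and Cyp19a1, averaged 2.19 and 1.21 FPKM, and the list summed to 0.95 and 7.2 TPM in the control libraries and 9.28 and 3.22 TPM in the treated libraries.

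**Figure D5:**
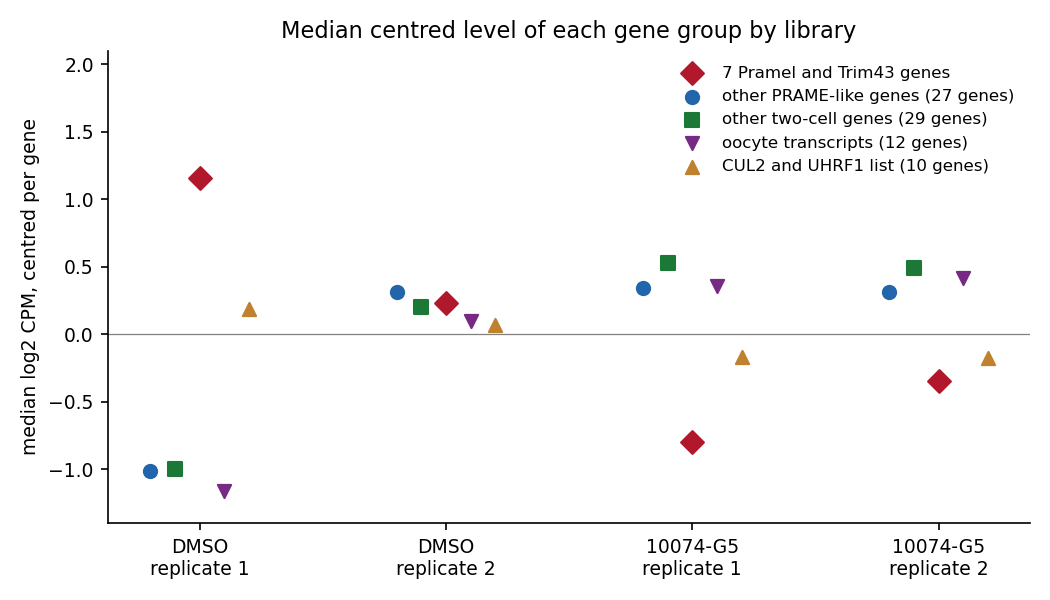
Median over genes of log2 CPM, with the mean of the 4 libraries subtracted for each gene, for the 7 Pramel and Trim43 genes (diamonds) and 4 other gene groups in each library. The 7 genes are at 1.16 in DMSO replicate 1 and at −0.80 and −0.35 in the treated libraries, while the other PRAME-like, two-cell and oocyte groups are at −1.16 to −1.0 in DMSO replicate 1 and above 0 elsewhere.

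The genes most like the mean of each pair or trio were sought by Euclidean distance between centred log2 CPM profiles over the 4 libraries. The mean profile of the pair or trio was compared with 7166 other genes with a mean of at least 10 CPM. Single members departed from that mean, and distances to single members were not computed. Nearest to the mean of the Trim43 genes were Sf3a1, a splicing factor gene, at a distance of 0.00776, then Incenp, Elp5, Kansl2 and Rrp15 (0.0608 to 0.0807). Sf3a1 was at 74.4 and 46.2 CPM in the control libraries and at 22.8 and 29.3 CPM in the treated libraries. Nearest to the mean of Pramel4 and Pramel5 were Tcp1, Mad2l1bp, Nifk, Dgcr8 and Snhg5 (0.0458 to 0.0599). The chaperonin gene Tcp1 was at 1080 and 564 CPM against 326 and 442 CPM. Nearest to the mean of Pramel6 and Pramel7 were Cdc14b, Ufc1, Rprd1a, Kif11 and Nelfe, at larger distances (0.109 to 0.144). The phosphatase gene Cdc14b was at 188 and 95.2 CPM against 35.2 and 55.8 CPM. With 4 libraries these profiles share the libraries and their order, and the list describes likeness only. None of the 15 genes was a PRAME-like, TRIM or listed two-cell gene. Those lists had only 27, 36 and 29 of the 13549 genes tested, so nothing is read from this.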

How the data were processed

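Libraries of polyadenylated RNA from late two-cell embryos (2 of DMSO and 2 of 10074-G5 embryos, grouped by the labels) had been prepared by the authors with a SMART-Seq kit and sequenced as read pairs. Reads were aligned to mm10 with STAR (2.7.10 in the submitters' processing notes). By the authors' account only uniquely mapped reads were kept, and genes were quantified with RSEM (1.3.3). The authors deposited the expected count (not normalized), TPM, FPKM and effective length of each gene. They tested genes with DESeq2.

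Here the expected counts were first rounded, low genes were removed with filterByExpr (minimum count 10, minimum total 15), and a quasi-likelihood test was fitted with edgeR (4.0.16, R 4.3.3) after TMM scaling, with Benjamini-Hochberg adjustment and no covariate. CPM values are TMM-scaled. A call required |log2FC| over 1 and adjusted p under 0.05. The biological coefficient of variation was 0.557. The fits were tested on simulated data. Alternatives were DESeq2 (1.42.0, also with effective lengths), limma (3.58.1) on log2(FPKM + 1) or log2(FPKM + 0.1), other scalings and filters, a replicate block and leaving out each library. Intervals marked SD are over 2 libraries per group, at depths of 18206584 to 20718690 counts. Those given with a log2FC are SE derived from the edgeR test statistic, whose variance estimate draws on all genes tested. They are therefore not the spread of a gene's replicates alone.

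The 7 genes and all gene lists were chosen with earlier results of these data known. All 7 genes and the 10 genes of the CUL2 and UHRF1 list were named. PRAME-like genes were found by symbol or RefSeq synonym and Trim genes by symbol. Gm13102 did not match by name and is in no family or cluster count. From both families the 3 with the highest mean FPKM and the 3 with the largest log2FC at a mean of at least 1 FPKM were named. From other lists the 2 with the highest mean FPKM were named, and for likeness the 5 nearest genes. Nearest neighbours were also named. All other genes were named after their values or sequences were seen, which is not marked at each of them. Upstream sequences are from RefSeq (GRCm38.p6, 250 bases before the start site) and transcripts from GENCODE M21, both of the same assembly as mm10. Identity was computed with Biopython (1.88) as identical over aligned bases, with gaps left out. Shared sequence was counted as 150-base windows occurring in a transcript of another gene on either strand.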

Additional observations from a re-analysis of the deposited data

How the results depend on the processing

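Under 14 alternatives all 98 log2FC values of the 7 genes stayed below 0, and 4 of them moved by more than the spread between replicates, all without DMSO replicate 1. The median log2FC of the 7 was −1.28 and ranged from −1.75 to −0.70 when 1 library was left out. The number called lower was 0 with all libraries and 0 to 7 when 1 library was left out (7 without DMSO replicate 2). It was 2 (Pramel6 and Pramel7) with no filter on low counts, where 479 genes (2.63%) were called lower. It was 3 (Pramel6, Pramel7 and Trim43c) with DESeq2 on the genes tested by edgeR (471 genes, 3.48%), on all genes with at least 1 count (437, 2.4%) and with effective lengths (429, 2.36%). The cause of these differences between settings was not tested. 9 alternatives called none of the 7. The median log2FC of the 3 cumulus markers tested, 0.28 with all libraries, ranged from −0.70 to 1.39 when 1 library was left out, with −0.43 without 10074-G5 replicate 1. Scaling by library totals moved the median of all genes from 0.04 to 0.17 and that of the 7 to −1.12. With the replicate number as a block, the median of the 7 was −1.23, none was called, and 32 genes were called lower in place of 0. Nothing in the labels says that a number pairs libraries, and deviations of same-numbered libraries had a correlation of −0.0343 over 13549 genes, so the replicate block is a description only. With 2 libraries a group, no library could be tested as an outlier within its group.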
